A study of Homo sapiens with 24 samples.

Results

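MB468 cells, the triple-negative breast cancer line MDA-MB-468, were compared between 12 h and 2 h after a switch from medium with methionine (Met) to medium in which Met was replaced by its precursor homocysteine (Hcy). The comparison uses 6 of the 24 libraries of the study: the 3 MB468 libraries taken at 12 h and the 3 taken at 2 h, and all 26645 gene entries of the count table other than its 92 spike-ins. It describes the late phase within Met-Hcy+ medium, so the 0 h culture is not its reference. MB468 depends on Met, which means that it stops proliferating in Met-Hcy+ medium, and the study also followed MDA-MB-468res-R8 (MB468res-R8), a single derived clone that proliferates there. The Met+ medium of the 0 h cultures held 100 µM Met. The Met-Hcy+ medium, in which cells of both lines stayed for 0.5, 2 or 12 h, held 370 µM DL-Hcy and no Met, and each group has 3 libraries. All groups, controls included, were in DMEM with 10% dialyzed serum, 1.5 µM vitamin B12, 4 mM glutamine and 100 µM cysteine, and no treatment other than the medium is labelled. A 12 h group in Met+ medium is not among the samples, so the time in Met-Hcy+ medium and the time since fresh medium cannot be told apart.

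Met is both a building block of proteins and the source of S-adenosylmethionine, the methyl donor for DNA, RNA, histones and phospholipids. Cells rebuild Met from Hcy with methionine synthase, which needs folate and vitamin B12. When an amino acid runs short, the transcription factor ATF4 and its target CHOP raise genes for amino acid transport and synthesis, and mRNAs for ribosomal proteins belong to the growth programme of the cell. Sterol synthesis is controlled by the SREBP transcription factors, which the protein INSIG1 holds back in the endoplasmic reticulum when sterol is plentiful. Immediate early genes such as those of the FOS, EGR and NR4A families rise within minutes of a stimulus, fresh medium included, and fall again within hours.

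The 3 libraries at 2 h held 17380356, 12016452 and 18557581 gene counts, and those at 12 h held 35060603, 19864449 and 33984223, so each of the 12 h libraries was deeper than any 2 h library (p = 0.1 by an exact permutation test, two-sided, the lowest value possible with 3 and 3). Spike-in RNAs took 0.278% ± 0.022 of the counts at 2 h and 0.266% ± 0.025 at 12 h (SD, n = 3). One library stood apart: MB468 at 2 h, replicate 2, had 8251 raw counts of RN7SK, an RNA without a poly(A) tail, against 111 and 87 in the other 2 h libraries and 82 to 141 at 12 h. RNAs without a poly(A) tail took 0.172% of its counts and at most 0.00199% in the other 5 libraries, and results that rest on it are given with and without it. The 10 markers of breast epithelium, which include KRT8, KRT18, KRT19, EPCAM and CDH1 beside basal ones, were all expressed. They summed to between 285891 and 295276 normalized counts at 2 h and between 238098 and 242942 at 12 h. The sum hides opposite moves: mean KRT17 fell from 60033 to 25401, KRT8 from 42775 to 23381 and KRT19 from 33194 to 12186. EGFR, the only marker with a higher mean at 12 h, went from 52585 to 92981. Of 5 markers of luminal lines, ESR1, PGR, ERBB2, GATA3 and FOXA1, PGR was at 0 and the sum was 3777 to 4417 at 2 h and 4347 to 4765 at 12 h. Mean GATA3 rose from 1226 to 1911 and FOXA1 from 369.1 to 488.2, while ESR1 fell from 484.5 to 366.5 and ERBB2 from 2009 to 1782. Of 6 fibroblast markers COL1A2 was at 0, and the sum, nearly all from COL1A1, was 820.0 to 902.3 at 2 h and 334.8 to 358.1 at 12 h. The 5 leukocyte markers summed to 87.44 to 92.65 and 85.21 to 87.97, nearly all from CD68, with PTPRC at no more than 3 raw counts in a library. The 4 endothelial markers summed to 8775 to 9177 and 3285 to 4071, nearly all from KDR, a VEGF receptor, and the part of these markers in any result was not tested. The replicates of a group correlated at 0.991 to 0.997 across genes, and since the sources used here do not say whether they were separate cultures, p-values measure the spread between libraries.

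Between 2 h and 12 h, 10278 of the 14741 genes tested changed in MB468 (69.7%), with 5097 higher (34.6%) and 5181 lower (35.1%) at 12 h. A gene is called here when edgeR's quasi-likelihood test gives a Benjamini-Hochberg adjusted p under 0.05 over all genes tested. Of these, 1106 genes rose at least 2-fold (7.5% of those tested) and 1320 fell at least 2-fold (8.95%). Counts of called list members in MB468 are to be read against the 34.6% higher and 35.1% lower over all genes tested. The middle of all genes was near 0, with a median log2 fold change of -0.01 and quartiles of -0.47 and 0.44. Taking the spike-in totals as library sizes moved that median to 0.17 and the calls to 5437 higher and 2872 lower, so the changes below are relative to the typical gene, and fewer cells of a kind and less RNA per cell cannot be told apart in these bulk libraries. For 71.7% of the genes tested, the 3 libraries of one time did not overlap those of the other. For context, 2410 genes were called at 2 h against 0 h (16.3%) and 10430 at 12 h against 0 h (70.8%), comparisons that share the 2 h or the 12 h libraries.

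**Figure D1:**
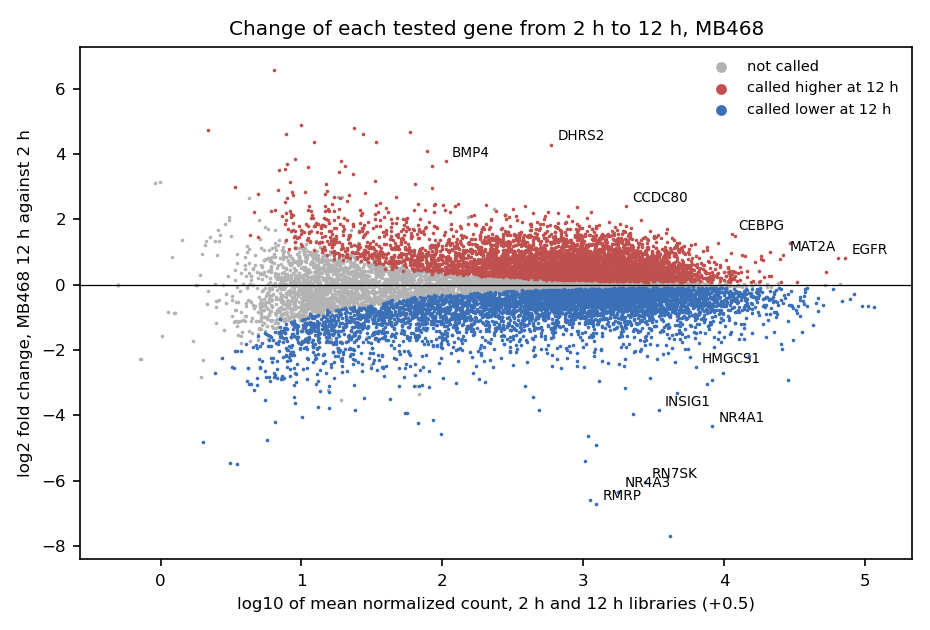
Log2 fold change of each of the 14741 tested genes between 12 h and 2 h in MB468 (y axis), against the log10 of its mean normalized count (x axis), with 1 point per gene and colors for called higher, called lower and not called. The 5097 higher and 5181 lower genes spread over the whole range of levels, with NR4A3 among the largest falls and DHRS2 among the largest rises at a high level. RMRP and RN7SK were high in 1 library at 2 h.

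The largest rises were made by genes that were nearly silent at 2 h. Values per library, in the order of the replicates, are normalized counts throughout, which are counts scaled to one library size with TMM factors and comparable between libraries but not between genes. Log2 fold changes stand in brackets ± their standard error. ITGBL1 (integrin subunit beta like; chromosome 13, 101452675 to 101720856 of GRCh38.p14) had 2.69, 1.94 and 0 at 2 h and 42.8, 49.6 and 40.5 at 12 h (4.80 ± 0.61). TEK, the angiopoietin receptor, had 0, 7.77 and 0 at 2 h and 45.8, 51.8 and 55.1 at 12 h (4.60 ± 0.70). LY9, a cell surface receptor best known from lymphocytes, had 4.03, 5.83 and 0 at 2 h and 59.3, 57.2 and 72.9 at 12 h (4.37 ± 0.53). For each of these the 2 h libraries lay at the floor of detection, so the size of the fold is loosely fixed while the groups are far apart. DHRS2, a mitochondrial short-chain dehydrogenase (chromosome 14, 23630115 to 23645639), was the largest rise of a gene well above the floor, with 55.0, 73.8 and 48.8 at 2 h and 1139, 1045 and 1199 at 12 h (4.29 ± 0.14, edgeR adjusted p = 2.60e-26). BMP4, a secreted growth factor, had 13.4, 13.6 and 15.02 at 2 h and 207, 172 and 209.7 at 12 h (3.79 ± 0.26). IL1RL1, the receptor of interleukin 33, had 12.1, 7.77 and 16.3 at 2 h and 163, 159.6 and 144 at 12 h (3.62 ± 0.34). The remaining genes of the 15 largest rises were LINC00624, TGM4, RBMS3, CLSTN2, TMEM156, ARHGAP25, HAVCR2, ANK1 and DOCK2, with log2 fold changes between 2.96 and 4.67. The rule that named them took only genes whose libraries of 2 h and 12 h did not overlap. Several of them, among them LY9, HAVCR2, DOCK2 and ARHGAP25, are known mainly from blood cells, while the defining leukocyte markers PTPRC and CD3E were at or near 0 in every library.

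The rises with the smallest p were of well expressed genes with little spread. YTHDF2, which binds methylated adenosine in mRNA and speeds its decay, had 1772, 1945 and 1886 at 2 h and 6112, 6074 and 5857 at 12 h (1.69 ± 0.05, edgeR adjusted p = 2.68e-29). HEXIM1, an inhibitor of the elongation factor P-TEFb, had 1962, 1976 and 1938 at 2 h and 5996, 5785 and 5726 at 12 h (1.58 ± 0.04). CCDC80, a secreted matrix protein, had 647, 661 and 637 at 2 h and 3704, 3301 and 3239 at 12 h (2.40 ± 0.07). CBX2, a subunit of the Polycomb complex PRC1, had 1074, 1065 and 1028 at 2 h and 4236, 4136 and 4024 at 12 h (1.97 ± 0.05). In all 4 genes the lowest 12 h library was more than 2-fold above the highest 2 h library, and CBX2 had stood at a mean of 2165 at 0 h.

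Apart from RNAs that were high in 1 library only, the largest falls included genes of the NR4A and FOS families. NR4A3 (chromosome 9, 99821885 to 99866891), an orphan nuclear receptor of the immediate early class, had 3417, 2973 and 4115 at 2 h and 43.98, 45.3 and 41.8 at 12 h (-6.33 ± 0.50, edgeR adjusted p = 3.18e-09). Its relative NR4A2 had 2266, 1539 and 2435 at 2 h and 75.1, 87.4 and 91.9 at 12 h (-4.64 ± 0.28). NR4A1, the third of the family, had 17345, 13392 and 16663 at 2 h and 805, 765 and 785 at 12 h (-4.33 ± 0.24). FOSB, a subunit of the AP-1 factor, had 4707, 3900 and 4047 at 2 h and 297, 290.2 and 231 at 12 h (-3.96 ± 0.20). These genes had been raised at 2 h: the 0 h means were 556 for NR4A3, 166 for NR4A2, 2348 for NR4A1 and 957 for FOSB, so that at 12 h all 4 lay below their 0 h mean. OASL, an interferon-stimulated gene, had 126, 130.2 and 121 at 2 h and 7.94, 6.47 and 5.07 at 12 h (-4.24 ± 0.24). ELF5, a transcription factor of the luminal progenitors of the breast, had 781, 806 and 826 at 2 h and 62.3, 79.8 and 83.6 at 12 h (-3.43 ± 0.11). LINC01132, LOC105375650, INSIG1, PLAC9, TMEM88 and BRE-AS1 followed with log2 fold changes between -3.94 and -3.51. BRE-AS1 is an antisense gene, and without strand its reads cannot be told apart from those of its partner. RMRP, RN7SK and SNORA73B also came under the largest falls, but each was high only in 2 h replicate 2: RMRP had 59.1, 7254 and 60.1 at 2 h and 23.8, 29.1 and 17.1 at 12 h. Without that library RN7SK and SNORA73B were not called (-0.68 and -0.86), while RMRP was still called at -1.38 (edgeR adjusted p = 0.047). With that library kept, RMRP was not called in a fit of the 6 libraries alone (edgeR adjusted p = 0.0941).

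All 26 genes of sterol synthesis and SREBP control fell (against 35.1% of all genes tested), 21 of them at least 2-fold, with log2 fold changes from -3.84 to -0.30 and a median of -1.69. They fell in every library alike: relative to the mean of the 2 h libraries, the list's median stood at 0.02, 0.01 and 0.01 in the 2 h libraries and at -1.70, -1.64 and -1.68 in the 12 h libraries. Against 0 h, the list's median was -0.03 at 2 h and -1.68 at 12 h. INSIG1, the sterol sensor partner of SCAP and itself an SREBP target, fell most, with 6389, 6119 and 6779 at 2 h and 408, 448 and 493 at 12 h (log2 fold change -3.84 ± 0.13, edgeR adjusted p = 1.19e-14). HMGCS1, the HMG-CoA synthase of the mevalonate pathway, had 10141, 11173 and 10814 at 2 h and 1783, 1919 and 1879 at 12 h (-2.53 ± 0.04), the smallest p of all genes tested (edgeR adjusted p = 2.65e-35). LSS, which closes the sterol rings, had 1176, 851 and 1214 at 2 h and 235, 232 and 210.4 at 12 h (-2.28 ± 0.18). FDFT1, squalene synthase, had 14259, 14767 and 15066 at 2 h and 4132, 4388 and 4590 at 12 h (-1.75 ± 0.04). The transcription factors fell less than most of their targets: SREBF1 had 8423, 8091 and 7659 at 2 h and 3280, 3337 and 3569 at 12 h (-1.25 ± 0.05). SREBF2 had 17295, 17466 and 16251 at 2 h and 10737, 10408 and 10745 at 12 h (-0.68 ± 0.05). The smallest falls were those of PMVK (-0.30 ± 0.06) and NSDHL (-0.40 ± 0.04). These were not called with spike-in totals as library sizes, where the other 24 fell and the median was -1.51.

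Promoters of the sterol genes are shown because these members moved together. RefSeq sequence (GRCh38.p14) was at hand for 19 of the 26 genes, and 6 motifs were searched on both strands in the 250 bases before the start, where matches of different motifs may overlap. The letters CCAAT (or ATTGG on the other strand), the core of the site that factor NF-Y binds, stood in 15 of these 19 promoters (78.9%) and in 3910 of the 11214 promoters of tested genes (34.9%). The sterol element TCACNCCAC stood in 1 of the 19, SREBF2, and in 0.794% of all. The other motifs stood in 9 (GGGCGGGG, 36.5% of all promoters), 1 (TTTCCCGC, 2.19%), 0 (TGACGTCA, 2.81%) and 0 (TGATGNAAT, 0.455%) of the 19. Of genes called at least 2-fold lower, 35.3% held CCAAT, and of those called at least 2-fold higher, 34.9%, near the share of all promoters. Other lists also held it above that share, with 57.6% for DNA replication, 55.6% for ATF4 and CHOP targets and 45.3% for zinc finger genes. Fatty acid synthesis genes held it in 12 of 24 promoters, immediate early genes in 37.9% and ribosome biogenesis genes in 32.5%. Of these lists, the ATF4 and CHOP list and the zinc finger list had median changes above 0. DNA replication and fatty acid synthesis had medians below 0. A link between CCAAT and the direction of change was not tested. The 250 bases before the start are given for 5 of the 19 members, with log2 fold changes between -3.84 and -1.94. These 5 were not chosen by the size of the fall alone. The sequences run 5′ to 3′ on the gene's strand, with each CCAAT or ATTGG in capitals.
INSIG1 (chr7:155297628-155297877, plus strand): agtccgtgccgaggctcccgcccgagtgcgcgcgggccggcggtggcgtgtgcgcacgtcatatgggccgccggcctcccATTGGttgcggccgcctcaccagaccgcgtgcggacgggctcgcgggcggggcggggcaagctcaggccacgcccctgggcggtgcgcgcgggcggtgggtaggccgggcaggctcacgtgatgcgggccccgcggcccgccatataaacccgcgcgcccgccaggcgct
HMGCS1 (chr5:43313413-43313662, minus strand): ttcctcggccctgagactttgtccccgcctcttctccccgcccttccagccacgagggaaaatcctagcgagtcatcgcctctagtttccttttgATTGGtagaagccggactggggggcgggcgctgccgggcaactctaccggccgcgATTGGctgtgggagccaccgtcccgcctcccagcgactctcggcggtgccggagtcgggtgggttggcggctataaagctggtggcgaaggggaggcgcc
LSS (chr21:46228775-46229024, minus strand): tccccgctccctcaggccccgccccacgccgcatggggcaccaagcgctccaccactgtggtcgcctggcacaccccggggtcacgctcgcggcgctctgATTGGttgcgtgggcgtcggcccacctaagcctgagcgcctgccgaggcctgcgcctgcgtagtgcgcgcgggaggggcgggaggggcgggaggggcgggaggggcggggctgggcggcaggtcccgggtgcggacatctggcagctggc
MVD (chr16:88663092-88663341, minus strand): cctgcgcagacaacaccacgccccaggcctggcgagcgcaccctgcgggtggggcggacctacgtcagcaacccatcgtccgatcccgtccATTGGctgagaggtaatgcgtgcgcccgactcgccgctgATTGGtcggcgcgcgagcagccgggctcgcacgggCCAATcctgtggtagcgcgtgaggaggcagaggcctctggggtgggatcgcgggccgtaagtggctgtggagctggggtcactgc
IDI1 (chr10:1056705-1056954, minus strand): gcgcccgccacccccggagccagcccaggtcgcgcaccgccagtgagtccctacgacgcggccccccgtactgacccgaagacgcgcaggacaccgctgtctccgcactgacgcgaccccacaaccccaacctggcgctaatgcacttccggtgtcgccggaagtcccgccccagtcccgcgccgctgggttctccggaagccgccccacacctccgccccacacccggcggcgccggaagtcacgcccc
INSIG1 and LSS held 1 such match, HMGCS1 held 2 and MVD held 3, with the nearest 85 bases before the start, while IDI1, a mevalonate pathway isomerase that fell by 1.94 on the log2 scale, held none in this window. A match is a string of letters and not a measured site.

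Enzymes of fatty acid synthesis fell in part, with a median of -0.59. Of 27 tested members 16 were lower (59.3%, against 35.1% of all genes tested) and 6 higher (22.2%, against 34.6%). The lipogenic core was among the lower. SCD, the desaturase that makes oleate, had 40079, 40422 and 38058 at 2 h and 10631, 11333 and 11988 at 12 h (-1.80 ± 0.04). FASN, fatty acid synthase, had 50268, 48126 and 43155 at 2 h and 14210, 14392 and 15499 at 12 h (-1.68 ± 0.07). ACLY, which makes cytosolic acetyl-CoA, had 17250, 16322 and 15836 at 2 h and 6955, 7490 and 7508 at 12 h (-1.17 ± 0.04). The desaturases of polyunsaturated fat fell most, with -2.14 ± 0.09 for FADS1 and -1.98 ± 0.12 for FADS2. Of the 6 that rose, only 3 are described here. MLYCD, which breaks down malonyl-CoA, had 149, 126 and 118 at 2 h and 348, 347 and 383 at 12 h (1.46 ± 0.11). OXSM and MCAT, of the mitochondrial fatty acid pathway, rose by 1.28 and 0.84. Beta-oxidation genes fell more evenly, 28 of 34 lower and 2 higher (median -0.48). CRAT, carnitine acetyltransferase, had 1089, 1005 and 870.2 at 2 h and 227, 199.5 and 238 at 12 h (-2.14 ± 0.10). ACADM, the medium-chain dehydrogenase, had 2496, 2454 and 2595 at 2 h and 1155, 1233 and 1248 at 12 h (-1.06 ± 0.05). CPT1A, the gate of mitochondrial fat entry, had 2879, 3029 and 2739 at 2 h and 2036, 1964 and 2009 at 12 h (-0.52 ± 0.05). The exceptions were AMACR (1.74 ± 0.36, a low gene) and CPT2 (0.22 ± 0.06). Outside these lists ACSL1, which activates long-chain fatty acids, had 9019, 9515 and 9631 at 2 h and 2021, 1992 and 2069 at 12 h (-2.21 ± 0.04), the second smallest p of all genes (edgeR adjusted p = 2.65e-35).

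Of 31 genes of phospholipid and triglyceride synthesis, 16 were lower (51.6%, against 35.1% of all genes tested) and 8 higher (25.8%, against 34.6%). Their median was -0.20. MGLL, a lipase that frees fatty acids from monoglycerides, had 77.9, 97.2 and 100.2 at 2 h and 199.8, 207 and 244 at 12 h (1.25 ± 0.12), and the acyltransferases GPAM and GPAT4 rose by 0.99 and 0.86. GPAT3, of the same step, fell by 1.56, and LPIN1, phosphatidate phosphatase, had 2830, 3119 and 2656 at 2 h and 1108, 1156 and 1164 at 12 h (-1.32 ± 0.06). PCYT1A, the rate-limiting enzyme of phosphatidylcholine synthesis, had 996, 944 and 990.4 at 2 h and 1337, 1279 and 1367 at 12 h (0.44 ± 0.05). PLIN2, which coats lipid droplets, had 626, 612 and 676 at 2 h and 524, 538 and 506 at 12 h (-0.29 ± 0.07), and with spike-in totals as library sizes its fall was not called. Among 6 tested genes of cholesterol efflux and LXR control, 3 were lower and 1 higher, and the efflux pump ABCG1 had 244, 194 and 214 at 2 h and 116, 132 and 115 at 12 h (-0.86 ± 0.12).

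Of 27 tested members of the list for the Met cycle itself, polyamines and transsulfuration, 8 were higher (29.6%) and 10 lower (37%). These shares were near the 34.6% and 35.1% over all genes tested. The median of 0.03 turned negative with libraries left out or thinned. With spike-in totals as library sizes 9 were higher and 3 lower, with a median of 0.22. MAT2A, the synthetase that makes S-adenosylmethionine, had 17423, 19384 and 18187 at 2 h and 33864, 35287 and 34371 at 12 h (0.91 ± 0.05, edgeR adjusted p = 1.62e-19), after a 0 h mean of 8769. METTL16, the methyltransferase that governs splicing and decay of MAT2A mRNA, had 1132, 1226 and 1147 at 2 h and 3148, 3169 and 3168 at 12 h (1.44 ± 0.05). For both the libraries of 2 h and 12 h did not overlap. MTR, methionine synthase, had 1163, 1220 and 1102 at 2 h and 963, 1065 and 938 at 12 h (-0.23 ± 0.06, not called with spike-in totals as library sizes), while MTRR, the reductase that keeps it active, had 1935, 2145 and 2071 at 2 h and 4157, 4055 and 4066 at 12 h, a called rise of 2.0-fold. AHCYL1, a relative of the hydrolase of S-adenosylhomocysteine, fell by 0.87 and SAT1, which acetylates polyamines, fell by 0.79 on the log2 scale. In the list for folate and nucleotide synthesis, 17 of 29 members were lower (58.6%) and 8 higher (27.6%), with a median of -0.27. IMPDH2, the rate-limiting enzyme of guanine nucleotide synthesis, had 4259, 4040 and 4192 at 2 h and 1214, 1259 and 1308 at 12 h (-1.73 ± 0.04). Enzymes that feed DNA synthesis were lower, with TK1 at -0.97, RRM1 at -0.75, RRM2 at -0.73 and TYMS at -0.71 as log2 fold changes, and UMPS and DHODH, of pyrimidine synthesis, were higher at 0.86 and 0.88.

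Of 32 ATF4 and CHOP targets 17 were higher (53.1%, against 34.6% of all genes tested) and 12 lower (37.5%, against 35.1%), with a median of 0.31. CEBPG, a leucine zipper partner of ATF4, had 5618, 6037 and 5893 at 2 h and 17794, 16510 and 16672 at 12 h (1.54 ± 0.04, edgeR adjusted p = 4.77e-29). CHAC1, which degrades glutathione, had 824, 981 and 1062 at 2 h and 2580, 2608 and 2606 at 12 h (1.44 ± 0.08). TRIB3, a pseudokinase that dampens the response, had 4991, 4675 and 4310 at 2 h and 9673, 9235 and 9486 at 12 h (1.02 ± 0.10). DDIT3, the gene of CHOP, had 264, 264 and 275 at 2 h and 429, 449.8 and 413 at 12 h (0.68 ± 0.11). PPP1R15A, the gene of GADD34, had 3653, 3379 and 3179 at 2 h and 5378, 5369 and 5179 at 12 h (0.64 ± 0.05). SESN2, which restrains mTORC1, had 858, 993 and 939 at 2 h and 1659, 1517 and 1532 at 12 h (0.76 ± 0.08). These regulators and stress genes lay above their 2 h levels in every 12 h library. The 4 largest falls in the list were those of ATF3, PCK2, ALDH1L2 and ASNS. ASNS, asparagine synthetase, had 7954, 8153 and 7316 at 2 h and 4051, 4284 and 4071 at 12 h (-0.92 ± 0.07). PCK2 had 3898, 3783 and 3010 at 2 h and 1680, 1677 and 1596 at 12 h (-1.11 ± 0.13) and the folate enzyme ALDH1L2 had 3491, 3418 and 2944 at 2 h and 1697, 1740 and 1710 at 12 h (-0.94 ± 0.09). ATF3, a target that is also an immediate early gene, had 4443, 4333 and 5078 at 2 h and 1120, 1001 and 953 at 12 h (-2.17 ± 0.15). ATF4 mRNA itself had 32361, 31369 and 32167 at 2 h and 27775, 28506 and 28404 at 12 h (-0.18 ± 0.03), a sign that turned to 0.01 under spike-in scaling. The letters TGATGNAAT, a form of the element ATF4 and CHOP bind, stood in 1 of the 27 promoters at hand for this list, that of FGF21, which was not called (0.12 ± 0.15).

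Amino acid transporters, some of which are also on that list, were higher in 10 of 18 cases (55.6%) and lower in 4 (22.2%, median 0.17). SLC7A5, the large neutral amino acid carrier that takes up Met, had 49075, 47353 and 44734 at 2 h and 82520, 80596 and 85073 at 12 h (0.81 ± 0.07). SLC7A1, for cationic amino acids, had 9867, 10561 and 9318 at 2 h and 18365, 18124 and 17908 at 12 h (0.87 ± 0.04). SLC6A9, for glycine, had 4079, 3676 and 3245 at 2 h and 7363, 7243 and 7530 at 12 h (1.01 ± 0.07). By contrast SLC6A14 had 1825, 1982 and 1957 at 2 h and 447, 480.0 and 449.9 at 12 h (-2.07 ± 0.06). SLC7A11, the cystine carrier, had 3702, 4613 and 3821 at 2 h and 2306, 2310 and 1967 at 12 h (-0.88 ± 0.11). SLC43A2 was low and not called, with 14.8, 13.6 and 18.8 at 2 h and 9.77, 12.9 and 13.9 at 12 h. Of 20 aminoacyl-tRNA synthetases 11 were lower (55%) and 5 higher (25%), with a median of -0.13 that turned to 0.05 under spike-in scaling. SARS, the seryl-tRNA synthetase, rose, with 8866, 8962 and 8458 at 2 h and 12533, 12487 and 12916 at 12 h (0.53 ± 0.05), and QARS, the glutaminyl one, fell, with 5756, 5728 and 5602 at 2 h and 2239, 2241 and 2310 at 12 h (-1.33 ± 0.04). MARS, the methionyl one, was not called (-0.08 ± 0.04), though it was with DESeq2 (-0.09). ER chaperones and targets of ATF6 or XBP1 had no common direction, with 11 of 29 higher (37.9%) and 13 lower (44.8%). Over all genes tested the shares were 34.6% and 35.1%. The median of this list, -0.05, turned to 0.14 under spike-in scaling. Within it DNAJB9, a co-chaperone of the ER, had 322, 422 and 377 at 2 h and 827, 787 and 808 at 12 h (1.12 ± 0.08). HSPA5, the gene of BiP, had 17844, 17503 and 17796 at 2 h and 20326, 20452 and 21385 at 12 h (0.23 ± 0.04). CALR, calreticulin, had 30162, 29035 and 28724 at 2 h and 18141, 18529 and 19911 at 12 h (-0.64 ± 0.04).

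**Figure D2:**
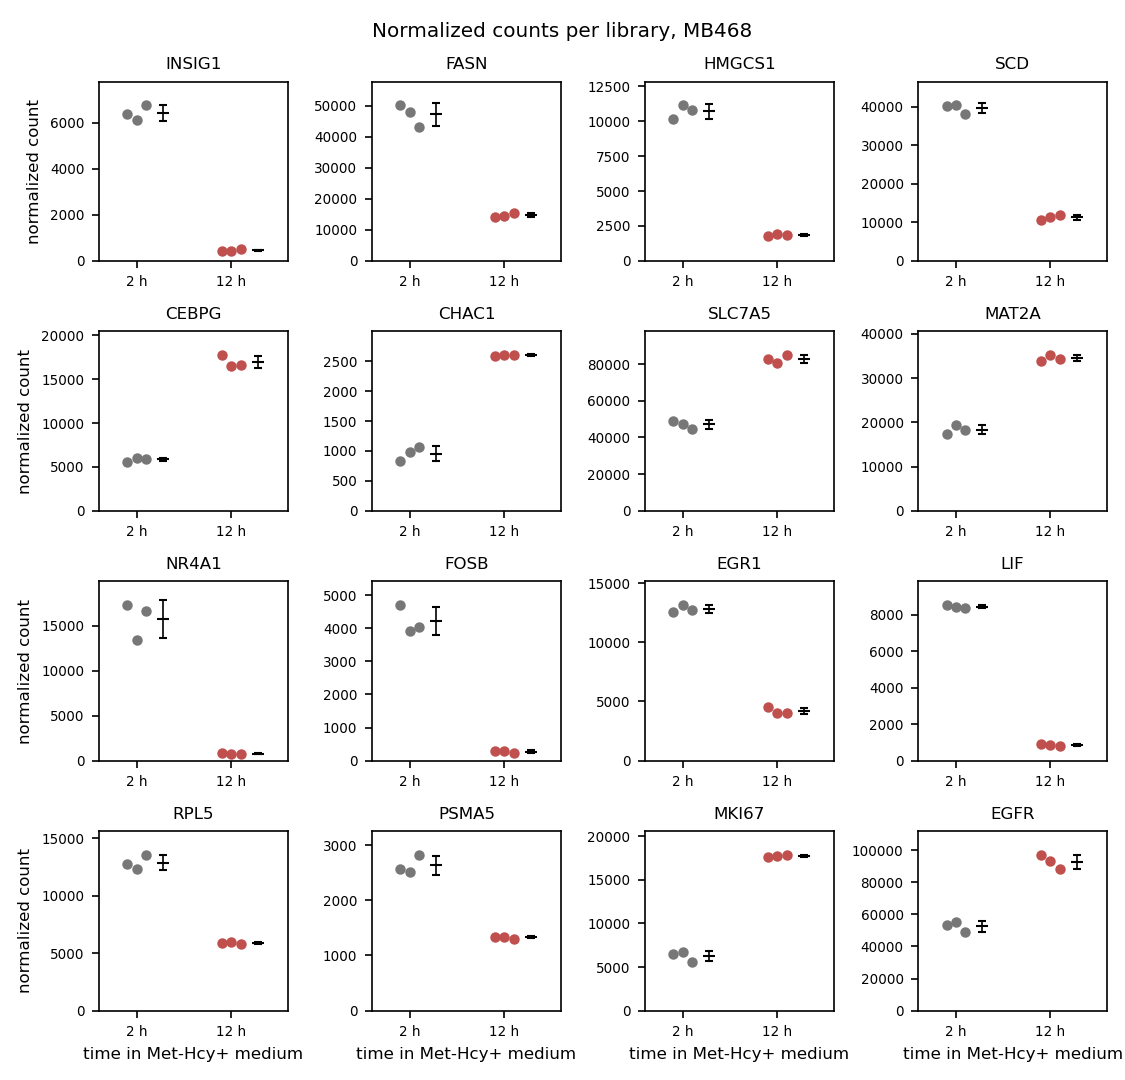
Normalized counts (y axis, from 0) of 16 genes in each of the 3 MB468 libraries at 2 h (grey) and 12 h (red), with the mean and SD (n = 3) as black bars. The 16 genes were picked for display. The groups are apart in each of them, as they were for 71.7% of all genes tested. Sterol and fat synthesis genes, immediate early genes, LIF, RPL5 and PSMA5 are lower at 12 h. CEBPG, CHAC1, SLC7A5, MAT2A, MKI67 and EGFR are higher.

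Immediate early genes were mostly lower, 30 of 39 lower and 5 higher (median -0.91), and the same list had a median of 1.08 at 2 h against 0 h and 0.03 at 12 h against 0 h. EGR1, a zinc finger factor of the growth response, had 12517, 13172 and 12716 at 2 h and 4495, 4051 and 4048 at 12 h (-1.61 ± 0.09) against a 0 h mean of 942, so it was still above that mean at 12 h. FOS had 669, 699.5 and 719 at 2 h and 293, 261 and 280.1 at 12 h (-1.31 ± 0.10). EGR3 had 2409, 2240 and 2210 at 2 h and 321, 290.2 and 284 at 12 h (-2.93 ± 0.18). KLF4 had 539.8, 596 and 661 at 2 h and 177, 188 and 189.5 at 12 h (-1.70 ± 0.13). DUSP4, a phosphatase that ends ERK signalling, had 7550, 7182 and 8043 at 2 h and 1463, 1512 and 1412 at 12 h (-2.38 ± 0.08), and DUSP6, of the same class, was not called (-0.17 ± 0.10). MYC, a driver of growth genes, had 19948, 20830 and 18440 at 2 h and 11631, 11407 and 12018 at 12 h (-0.76 ± 0.05). The 5 that rose were IER5L, SPRY4, BTG2, IER2 and SPRED1, of which IER5L had 411, 346 and 379 at 2 h and 894, 905 and 1016 at 12 h (1.30 ± 0.20). BTG2 was not called without replicate 1 of either time (0.35 and 0.33), nor SPRED1 without 2 h replicate 1 or 12 h replicate 2 (0.13 and 0.14).

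LIF, an interleukin 6 family cytokine, had 8557, 8441 and 8374 at 2 h and 895, 887 and 786 at 12 h (-3.31 ± 0.15), and IL6 itself had 314, 262 and 306 at 2 h and 84.3, 88.5 and 76.0 at 12 h (-1.84 ± 0.16). Among targets of NF-kB and chemokines, 14 of 22 were lower and 4 higher (median -0.39), with CCL2 at 460.5, 496 and 509.6 at 2 h and 119, 114 and 114 at 12 h (-2.07 ± 0.13) and CXCL8 at 487, 556 and 599.7 at 2 h and 211, 262 and 168 at 12 h (-1.38 ± 0.19). NFKBIE, an inhibitor of the pathway, rose (359.8, 363 and 367 at 2 h and 922, 847 and 864 at 12 h, 1.27 ± 0.09). Of 14 tested EGFR family receptors and ligands, 10 were lower and 2 higher. With spike-in totals as library sizes 5 were lower and 2 higher. The ligands AREG, with 247, 301 and 333 at 2 h and 52.5, 60.4 and 45.0 at 12 h (-2.50 ± 0.17), and HBEGF, with 1498, 1758 and 1669 at 2 h and 449, 466 and 468 at 12 h (-1.83 ± 0.08), fell, and so did EREG (-1.96 ± 0.19) and EPGN (-2.14 ± 0.26). The 2 that rose were receptors: EGFR, highly expressed in this line, had 53397, 55450 and 48907 at 2 h and 97317, 93113 and 88511 at 12 h (0.82 ± 0.04). ERBB3 had 3331, 3189 and 3080 at 2 h and 3725, 3799 and 3840 at 12 h (0.24 ± 0.05). In the list for TGF-beta feedback and matrix genes, 14 of 29 were lower (48.3%, against 35.1% of all genes tested) and 11 higher (37.9%, against 34.6%). ID3, an inhibitor of differentiation factors, had 3886, 3672 and 3566 at 2 h and 835, 824 and 973 at 12 h (-2.07 ± 0.12). CTGF, a matrix signal, had 40052, 43517 and 39946 at 2 h and 12261, 10516 and 8880 at 12 h (-1.96 ± 0.09). By contrast BAMBI, a decoy receptor, had 741, 649 and 875 at 2 h and 2701, 2463 and 2596 at 12 h (1.76 ± 0.07). COL4A1, basement membrane collagen, had 121, 148 and 100.2 at 2 h and 378, 413 and 407 at 12 h (1.72 ± 0.15).

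PER1, a period gene of the circadian clock, had 1116, 974 and 977 at 2 h and 169.8, 202 and 184 at 12 h (-2.48 ± 0.17). PER2 had 2354, 2021 and 2005 at 2 h and 569, 505 and 558 at 12 h (-1.96 ± 0.12), and at 12 h both were below their 0 h means of 361 and 897. The clock list as a whole was mixed, with 5 of 21 higher (23.8%, against 34.6% of all genes tested) and 8 lower (38.1%, against 35.1%). Its median of -0.10 turned to 0.08 under spike-in scaling. NPAS2, a partner of BMAL1, rose (784, 829.7 and 821 at 2 h and 1666, 1744 and 1620 at 12 h, 1.05 ± 0.07). Of 8 targets of the aryl hydrocarbon receptor, 6 were lower and none higher. CYP1B1, a monooxygenase of that set, had 23954, 26249 and 23844 at 2 h and 5271, 5565 and 5633 at 12 h (-2.17 ± 0.04, edgeR adjusted p = 2.15e-33), and CYP1A1 had 1023, 1104 and 1038 at 2 h and 388, 392 and 339 at 12 h (-1.50 ± 0.08), after a 0 h mean of 3281. TM4SF1, a membrane protein outside these lists, had 16383, 16627 and 17899 at 2 h and 2509, 2606 and 2649 at 12 h (-2.71 ± 0.05). CDKN1A, the gene of the p21 cell cycle inhibitor, had 1754, 1784 and 1683 at 2 h and 272, 318 and 317 at 12 h (-2.53 ± 0.15). The wider list of G1 cyclins, CDK inhibitors and p53 targets had 10 of 25 higher (40%) and 9 lower (36%). These shares were near the 34.6% and 35.1% over all genes tested. In that list CCND1, cyclin D1, had 0.24 ± 0.05, CDKN1B, the gene of p27, had 0.52 ± 0.09 and CCND3 had -0.69 ± 0.05.

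Genes of the protein synthesis machinery moved in 2 directions. Cytosolic ribosomal protein genes were lower in 74 of 83 cases and higher in 3 (median -0.41). RPL5 had 12757, 12325 and 13583 at 2 h and 5899, 5936 and 5766 at 12 h (-1.14 ± 0.04). RPL7 had 8627, 8610 and 9572 at 2 h and 3737, 3995 and 3802 at 12 h (-1.22 ± 0.05). RPS6 had 29728, 28682 and 30036 at 2 h and 20668, 21460 and 21544 at 12 h (-0.47 ± 0.03). Ribosomal proteins have many processed copies, so their counts could be split by the counting. Ribosome biogenesis factors went up instead, 33 of 47 higher and 5 lower (median 0.28). RRS1, an assembly factor of the large subunit, had 820.4, 802 and 835 at 2 h and 2776, 2568 and 2564 at 12 h (1.68 ± 0.06). NOP2, an rRNA methyltransferase, had 3092, 3222 and 3036 at 2 h and 7021, 6958 and 6852 at 12 h (1.16 ± 0.04). POLR1B, of RNA polymerase I, had 1492, 1508 and 1689 at 2 h and 3213, 3240 and 3149 at 12 h (1.03 ± 0.06). NPM1, the abundant nucleolar chaperone, was the largest fall of the list, with 46397, 45328 and 50301 at 2 h and 29476, 30792 and 30048 at 12 h (-0.65 ± 0.05). Among mitochondrial ribosomal proteins 38 of 76 were higher (50%, against 34.6% of all genes tested) and 17 lower (22.4%, against 35.1%). The median was 0.15, with MRPS12 at 1.11 ± 0.06 and MRPS6 at -0.81 ± 0.06. With spike-in totals as library sizes 40 were higher and 2 lower, with a median of 0.33.

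Proteasome, chaperone and energy metabolism genes were mostly lower. With spike-in totals as library sizes fewer members were called lower, 35 of 83 for cytosolic ribosomal proteins, 23 of 75 for oxidative phosphorylation, 17 of 34 for beta-oxidation, 9 of 29 for folate and nucleotides and 8 of 31 for phospholipids, with the medians of all these lists still below 0. Of 33 proteasome subunits 29 were lower and 2 higher (median -0.56). PSMA5, of the core particle, had 2566, 2516 and 2831 at 2 h and 1337, 1344 and 1307 at 12 h (-0.99 ± 0.05). PSMB7, also of the core, had 1580, 1663 and 1699 at 2 h and 789, 819.8 and 782 at 12 h (-1.05 ± 0.05). PSMD1, of the regulatory particle, had 6456, 6797 and 7167 at 2 h and 3447, 3562 and 3381 at 12 h (-0.98 ± 0.05). PSMB3 had 329, 5.83 and 25.04 at 2 h and 3.05, 42.1 and 1.27 at 12 h and was not called. Subunits of oxidative phosphorylation encoded in the nucleus were lower in 61 of 75 cases and higher in 1 (median -0.30), with NDUFS1, of complex I, at 3444, 3597 and 3697 at 2 h and 2068, 2149 and 1999 at 12 h (-0.79 ± 0.05) and the rise of NDUFV3 at 0.45 ± 0.06. Glycolysis and hypoxia targets were lower in 25 of 37 cases and higher in 4 (median -0.55). PFKFB3, which stimulates glycolysis, had 5674, 5445 and 5717 at 2 h and 2471, 2429 and 2446 at 12 h (-1.20 ± 0.06), and PDK3 fell by 1.59 on the log2 scale, while VEGFA, a secreted angiogenic factor, rose, with 5536, 5635 and 5583 at 2 h and 7750, 7535 and 7936 at 12 h (0.47 ± 0.05). Heat shock genes were lower in 16 of 22 cases and higher in 4 (median -0.44). HSP90AA1, a cytosolic HSP90 gene, had 44033, 45725 and 47583 at 2 h and 22498, 23673 and 23952 at 12 h (-0.97 ± 0.04). HSP90AB1, the other, had 58692, 58269 and 61848 at 2 h and 32746, 34042 and 34739 at 12 h (-0.82 ± 0.04). HSPA1A, whose near-identical copy HSPA1B can share its reads, was called higher with overlapping libraries, 373, 317 and 252 at 2 h and 392, 364 and 406 at 12 h (0.31 ± 0.11). That call was lost without replicate 3 of 2 h (0.16) or of 12 h (0.27). Of 29 NRF2 targets and glutathione genes, 19 were lower (65.5%, against 35.1% of all genes tested) and 6 higher (20.7%, against 34.6%). Their median was -0.43. HMOX1, heme oxygenase, had 3159, 2977 and 2908 at 2 h and 872, 823 and 862 at 12 h (-1.82 ± 0.10). By contrast NQO1, a classic member, had 8231, 8963 and 8759 at 2 h and 8136, 8021 and 8193 at 12 h and was not called (-0.09 ± 0.04), though it was with DESeq2 (-0.10). SRXN1, which repairs peroxiredoxins, rose (2450, 2528 and 2216 at 2 h and 3851, 3704 and 3782 at 12 h, 0.66 ± 0.06). Autophagy and lysosome genes were lower in 25 of 47 cases (53.2%) and higher in 9 (19.1%), and their median of -0.18 turned to 0.01 under spike-in scaling. Among them ATP6V1A, of the proton pump, had -1.21 ± 0.05 and MITF, a lysosomal regulator, had 1.39 ± 0.11.

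Of 38 genes of DNA replication and the G1 to S step, 19 were lower (50%) and 10 higher (26.3%). The median of -0.12 turned to 0.07 under spike-in scaling. MCM6, of the replicative helicase, had 3257, 3167 and 3391 at 2 h and 1549, 1691 and 1615 at 12 h (-1.02 ± 0.04). PCNA, the sliding clamp, had 3876, 3991 and 4360 at 2 h and 2398, 2381 and 2258 at 12 h (-0.80 ± 0.05). By contrast FEN1 had 2487, 2406 and 2436 at 2 h and 6279, 6279 and 6419 at 12 h (1.37 ± 0.04). Of 33 genes of G2 and mitosis, 14 were higher (42.4%) and 11 lower (33.3%), near the shares of 34.6% and 35.1% over all genes tested, with a median of -0.03 that turned to 0.16 under spike-in scaling. MKI67, the proliferation marker, had 6531, 6711 and 5612 at 2 h and 17673, 17773 and 17892 at 12 h (1.50 ± 0.05). AURKA, a mitotic kinase, had 1363, 1417 and 1401 at 2 h and 2509, 2560 and 2490 at 12 h (0.85 ± 0.05). CCNB2, a mitotic cyclin, had 2303, 2102 and 2264 at 2 h and 1298, 1286 and 1320 at 12 h (-0.78 ± 0.04). HMMR had 1821, 1821 and 1963 at 2 h and 1031, 1097 and 1065 at 12 h (-0.82 ± 0.06).

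Zinc finger genes of the ZNF family, many of them transcriptional repressors with a KRAB domain, formed the largest list and rose widely: 294 of 466 were higher and 53 lower (median 0.48), with 97 at least 2-fold higher and 7 at least 2-fold lower. ZNF48 had 308, 276 and 289 at 2 h and 1546, 1434 and 1559 at 12 h (2.38 ± 0.08). ZNF420 had 224, 262 and 239 at 2 h and 1141, 1062 and 1069 at 12 h (2.18 ± 0.10). ZNF461 had 184, 212 and 244 at 2 h and 811, 782 and 748 at 12 h (1.87 ± 0.13). Many members are near copies of each other whose reads the counting could split. ZNF750, an epidermal differentiation factor that shares the name, fell, with 3628, 3037 and 3210 at 2 h and 569, 538 and 656 at 12 h (-2.48 ± 0.20) and had stood at a mean of 426 at 0 h. Of 37 methyltransferases and chromatin writers, the enzymes that use S-adenosylmethionine and their partners, 22 were higher and 7 lower (median 0.32). These were 59.5% and 18.9%, against 34.6% and 35.1% of all genes tested. MB468res-R8 shared this rise, with 27 higher and 2 lower (median 0.26). The difference was called for 14 members as higher there and for 15 as lower. In MB468, SETD2, the histone H3 lysine 36 methylase, had 1970, 1933 and 1857 at 2 h and 5133, 5249 and 5186 at 12 h (1.43 ± 0.04). NSD1, of the same residue, had 5300, 5470 and 4936 at 2 h and 13097, 12895 and 12363 at 12 h (1.29 ± 0.04). PRMT6, an arginine methyltransferase, had 709, 661 and 724 at 2 h and 1875, 1850 and 1941 at 12 h (1.43 ± 0.06). DNMT1, the maintenance DNA methyltransferase, had 25120, 25017 and 23442 at 2 h and 20655, 20927 and 21683 at 12 h (-0.22 ± 0.04, not called with spike-in totals as library sizes), and PRMT5 was not called (0.00 ± 0.05). Among 21 host genes of small nucleolar RNAs 9 were higher (42.9%, against 34.6% of all genes tested) and 6 lower (28.6%, against 35.1%). SNHG1 had 0.73 ± 0.04 and SNHG4 had -1.07 ± 0.16.

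Among 31 tested interferon-stimulated genes 10 were higher (32.3%, against 34.6% of all genes tested) and 13 lower (41.9%, against 35.1%). Their median was 0.01. IFIT2 had 17.4, 15.5 and 27.5 at 2 h and 72.1, 85.2 and 96.3 at 12 h (2.02 ± 0.28) and the RNA sensor IFIH1 had 173, 177 and 163 at 2 h and 393, 408 and 442 at 12 h (1.28 ± 0.11). By contrast ISG15 had 223, 175 and 187 at 2 h and 122.8, 115 and 144 at 12 h (-0.61 ± 0.15) beside the fall of OASL. Keratins and squamous differentiation genes were lower in 14 of 29 cases (48.3%) and higher in 7 (24.1%), with a median of -0.22. The basal keratin KRT17 had 60787, 58594 and 60719 at 2 h and 26178, 25336 and 24689 at 12 h (-1.24 ± 0.10). KRT19 had 34961, 31962 and 32658 at 2 h and 11152, 11966 and 13441 at 12 h (-1.45 ± 0.05). KRT15 had 4446, 4230 and 4059 at 2 h and 1158, 1329 and 1450 at 12 h (-1.70 ± 0.06). ALOXE3, an epidermal lipoxygenase, had 25.5, 54.4 and 40.1 at 2 h and 216, 214 and 224 at 12 h (2.48 ± 0.25). KRT17 and KRT19 also stand among the markers of the line given above.

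The 2 lists that rested on 1 library were RNAs without a poly(A) tail and replication-dependent histones, whose mRNAs also lack that tail. The former had 7 of 8 members lower with a median of -4.38, and 1 lower with a median of -0.06 without 2 h replicate 2. The latter had 21 of 32 lower with a median of -1.68, and without that library 7 higher and 3 lower with a median of 0.34. RPPH1, the RNA of RNase P, had 34.9, 6579 and 21.3 at 2 h and 26.3, 25.9 and 16.5 at 12 h, and HIST1H1B had 9.40, 544 and 6.26 at 2 h and 7.94, 7.55 and 6.97 at 12 h. In both the other 5 libraries lay close together. The other 34 lists kept the sign of their medians when that library was left out, apart from the Met cycle list (0.03 to -0.01).

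**Figure D3:**
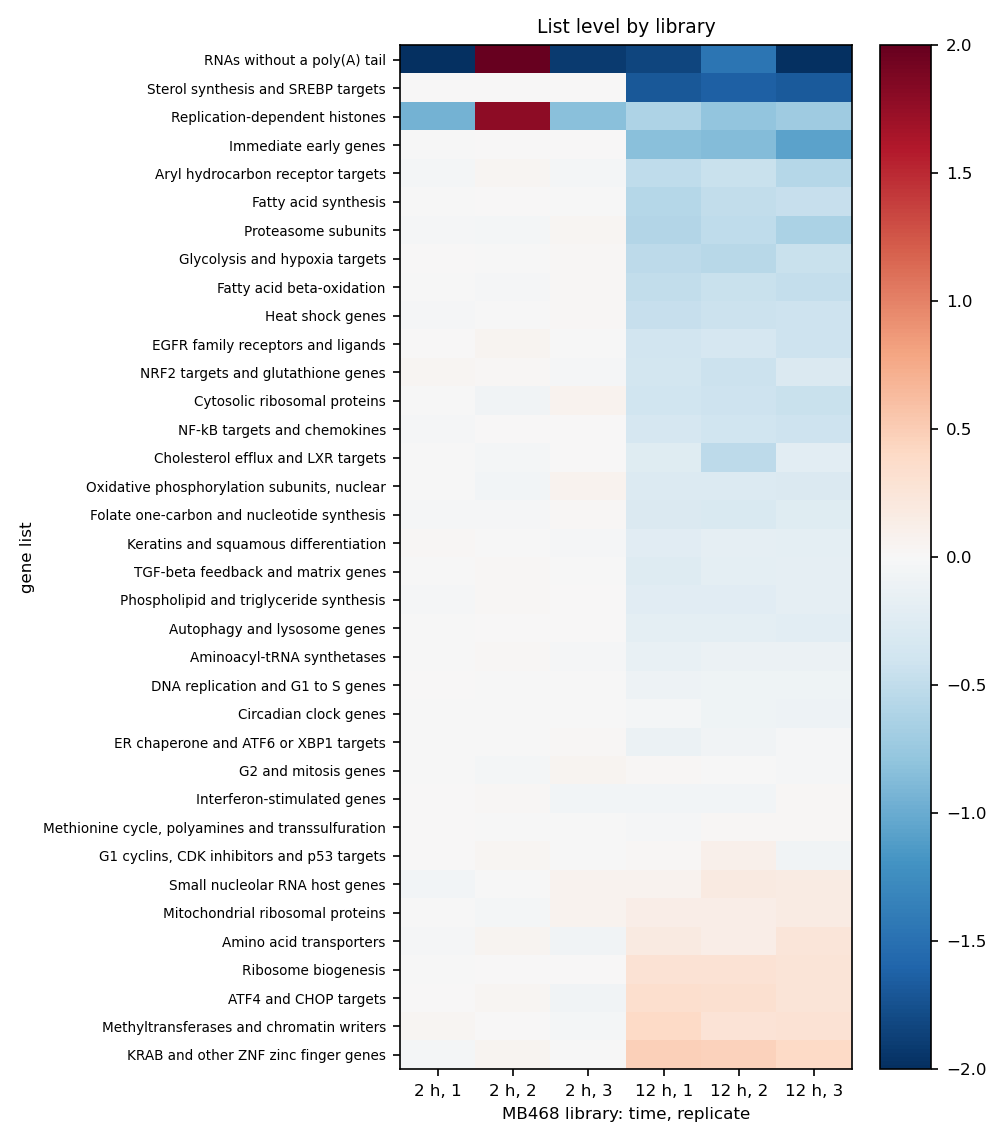
Median deviation of each list's members from their mean at 2 h (log2, color, limited to -2 and 2) in the 6 MB468 libraries (x axis) for the 36 lists with tested members (y axis). The 3 libraries at 12 h are alike for the sterol list (-1.70, -1.64 and -1.68), and 2 h replicate 2 stands out for RNAs without a poly(A) tail (4.02) and histones (1.79).

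The same interval was measured in MB468res-R8 with separate libraries. There 9213 genes changed (62.5%), 4526 higher (30.7%) and 4687 lower (31.8%), and 278 rose (1.89%) and 1320 fell (8.95%) at least 2-fold. The median absolute log2 fold change of called genes was 0.60 in MB468 and 0.47 in MB468res-R8. Both lines called 7083 genes, which is 68.9% of the calls in MB468 and 76.9% of those in MB468res-R8. Of these 5462 went the same way and 1621 opposite ways, 750 rising in MB468 and 871 falling there. Across the 14741 genes, which are not independent, the log2 fold changes of the lines correlated at 0.485 (Pearson) and 0.467 (Spearman). A test of the difference itself, as a contrast of the same edgeR model, called 8222 genes (55.8%), with the change in MB468res-R8 above that in MB468 for 3870 (26.3%) and below it for 4352 (29.5%).

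The fall of sterol genes was shared in direction and differed in size: in MB468res-R8 25 of the 26 fell with a median of -0.78. For 23 of the 26 the difference was called with the smaller fall in MB468res-R8. Over all genes tested, 30.7% rose and 31.8% fell in MB468res-R8, and the difference was called higher there for 26.3% and lower for 29.5%. HMGCS1 fell by 1.16 on the log2 scale there, a difference of 1.36 ± 0.06, and INSIG1 had a log2 fold change of -2.53 ± 0.13, a difference of 1.31 ± 0.18. Immediate early genes fell in both lines, 30 of 39 in each, with a median of -1.17 in MB468res-R8, and NR4A1 fell further there (-6.76 ± 0.33, difference -2.43 ± 0.45). ATF4 and CHOP targets parted: 25 of 32 fell in MB468res-R8 and 3 rose (median -0.75), and the difference was called for 25 members as lower in MB468res-R8. Of those, CEBPG had -0.33 ± 0.04 there (difference -1.87 ± 0.06), CHAC1 -0.89 ± 0.10 (difference -2.33 ± 0.13) and TRIB3 -0.93 ± 0.10 (difference -1.96 ± 0.14). ASNS fell in both, with -1.20 ± 0.07 in MB468res-R8. MAT2A, higher at 12 h in MB468, had -0.26 ± 0.05 in MB468res-R8 (difference -1.17 ± 0.07), and SLC7A5 had -1.35 ± 0.07 (difference -2.16 ± 0.10).

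Ribosomal protein, proteasome and heat shock genes parted the other way. Cytosolic ribosomal protein genes, lower in MB468, were higher in 39 and lower in 2 of 83 cases in MB468res-R8 (median 0.12), 38 of them called in opposite directions. Proteasome subunits were higher in 19 of 33 cases there and lower in none (median 0.16), and heat shock genes higher in 13 of 22 (median 0.50). Over all genes tested 30.7% were higher there and 31.8% lower. Calls in opposite directions in the 2 lines made up 1621 of the 14741 genes tested. Genes of G2 and mitosis, without a common direction in MB468 (median -0.03), were higher in 29 of 33 cases in MB468res-R8 (median 0.65). Of these genes, 11 were called in opposite directions. HSP90AA1 had 0.53 ± 0.04 there (difference 1.50 ± 0.06), NPM1 0.85 ± 0.05 (difference 1.50 ± 0.06) and IMPDH2 0.47 ± 0.04 (difference 2.20 ± 0.06). With spike-in totals as library sizes 4891 genes were called for the difference, 1378 above and 3513 below, in place of 8222, and the median of all genes in MB468res-R8 moved from -0.01 to 0.05. The medians of the lists in MB468res-R8 were not computed on that scale. Ribosome biogenesis rose in both lines, by a median of 0.28 in MB468 and 0.60 in MB468res-R8.

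**Figure D4:**
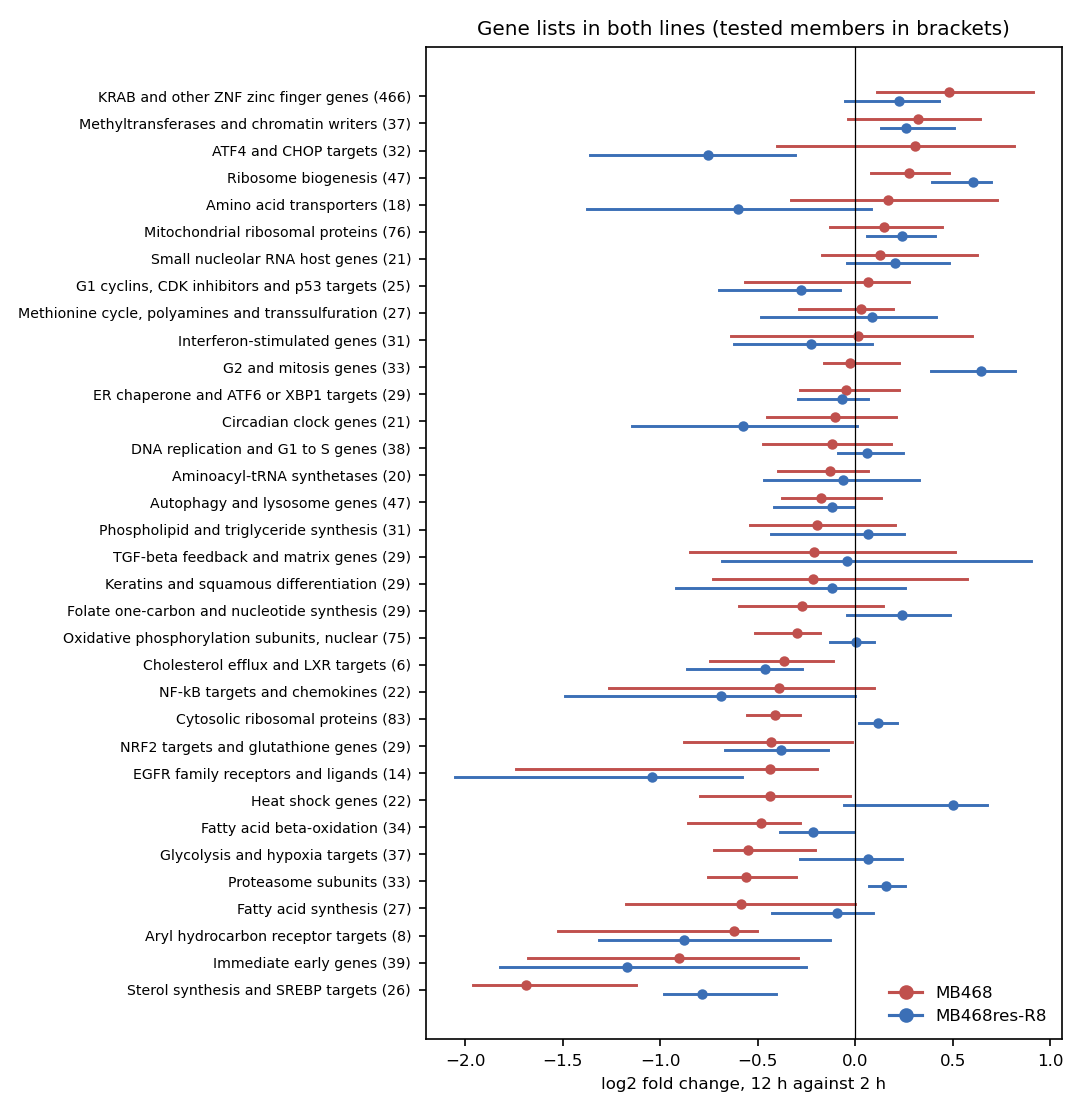
Log2 fold change from 2 h to 12 h (x axis) for 34 gene lists (y axis, tested members in brackets) in MB468 (red) and MB468res-R8 (blue), with the point at the median and the line from the first to the third quartile of the members. The 2 lists that rest on 1 library are left out. The sterol list lies lowest in MB468 (-1.69 against -0.78), and the ATF4 and CHOP list lies on opposite sides of 0 (0.31 and -0.75).

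The genes with the largest differences between the lines, among those called in opposite directions, included matrix and signalling genes. VIM, the mesenchymal intermediate filament, had 749, 797 and 775 at 2 h and 404, 508 and 564 at 12 h (-0.66 ± 0.09) in MB468 and a log2 fold change of 1.85 ± 0.07 in MB468res-R8. COL5A1, a fibrillar collagen, had 337, 305 and 293 at 2 h and 150.3, 158 and 170.4 at 12 h (-0.97 ± 0.15) and 2.33 ± 0.72 there, and NOG, a secreted BMP antagonist, -1.95 ± 0.49 and 1.18 ± 0.31. In the other direction, GDF15, a stress cytokine, had 25.5, 29.1 and 18.8 at 2 h and 64.8, 74.4 and 74.1 at 12 h (1.55 ± 0.31) in MB468 and -3.62 ± 0.62 in MB468res-R8, and DHRS2 had 4.29 ± 0.14 and -0.44 ± 0.15. ADH7, an alcohol dehydrogenase, had 1.52 ± 0.42 and -4.01 ± 1.49. CHRNA9, an acetylcholine receptor subunit, had 17.4, 25.3 and 40.1 at 2 h and 84.3, 74.4 and 66.5 at 12 h (1.42 ± 0.35) and -4.50 ± 0.72 there. The rule that named these genes took only those with a called difference.

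**Figure D5:**
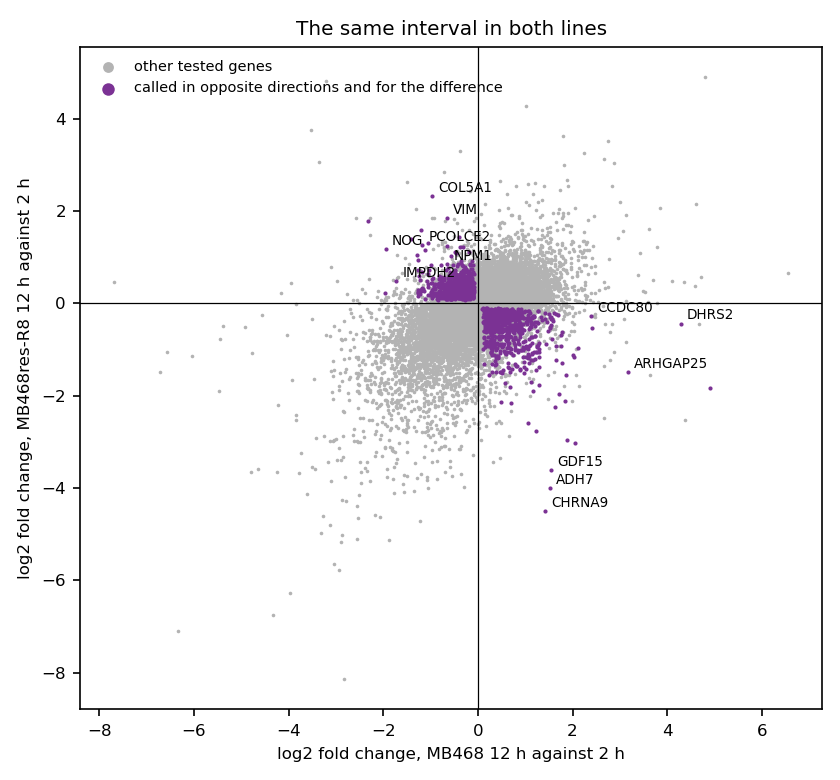
Log2 fold change from 2 h to 12 h in MB468 (x axis) against MB468res-R8 (y axis), 1 point per tested gene, with the 1621 genes called in opposite directions and for the difference in purple. GDF15, ADH7 and CHRNA9 lie at the lower right, and COL5A1 and VIM at the upper left.

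Transcript features had a weak relation to the changes. Of the 14741 genes, 13416 (91.0%) had a GENCODE transcript on GRCh38. Across these genes the log2 fold change in MB468 had a Spearman rho of 0.0897 with transcript length and of -0.0862 with GC content. In the fifth with the lowest GC content the median was 0.05, with 1037 of 2684 genes higher and 844 lower, and in the fifth with the highest it was -0.13, with 794 of 2683 higher and 1083 lower. In MB468res-R8 the relation with GC content was steeper, a rho of -0.295 and medians of 0.18 and -0.28 at the same ends. The 398 genes with a single exon in every transcript had a median of 0.18 in MB468, with 135 higher and 79 lower, against -0.04 for genes with over 5 exons.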

How the data were processed

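Poly(A)-selected RNA from MB468 and MB468res-R8 was sequenced with spike-in RNAs by a kit that does not mark strand. The deposited table holds raw counts, which the authors made by alignment with HISAT2 2.1.0 to GRCh38 plus spike-in sequences and assignment to genes with featureCounts (Subread 1.5.3). The annotation release and strand setting are not given in the sources used here. Genes passing edgeR's filterByExpr were fitted with 8 group means, TMM factors and the quasi-likelihood test (edgeR 4.0.16, R 4.3.3), with Benjamini-Hochberg adjustment over all tested genes and a threshold of 0.05. Errors of log2 fold changes are standard errors from the same test. Normalized counts are counts divided by the effective library size and multiplied by its mean. Gene lists, members and rules were chosen with earlier results of these data known. Genes were named by size of change (15 per direction, at least 1 CPM in the higher group and groups apart), smallest p (5 per direction), the largest called members of each list (up to 4 per direction) with textbook examples, and the largest opposite differences between lines (5 per direction). ATF4, DUSP4, EGR3, FGF21, HSP90AB1, IDI1, KDR, KLF4, MVD, MYC, NSDHL, PMVK, PSMB3, SPRED1, SREBF1 and SREBF2 were named after their values were seen. Same-numbered replicates did not deviate together (mean correlation -0.227 in MB468), so no pairing was used. Alternatives were DESeq2 1.42.0, its size factors, spike-in totals, other filters, thinned counts, a replicate block, left-out libraries and, chosen after seeing the data, offsets for GC content and length.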

Additional observations from a re-analysis of the deposited data

Results flagged for a closer look

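The change from 2 h to 12 h differed between the lines for 8222 genes by the contrast of the edgeR model, and 1621 genes were called in opposite directions in the lines with a called difference. Differences are given as log2 fold change in MB468res-R8 minus that in MB468. Among the genes called in opposite directions, the largest positive differences were those of COL5A1 (3.30), NOG (3.13), VIM (2.50), PCOLCE2 (2.45) and LOC105274304 (2.36), whose fall in MB468 was lost in several alternatives, among them the replicate block (-1.06). The largest negative ones were those of CHRNA9 (-5.93), ADH7 (-5.53), GDF15 (-5.18), DHRS2 (-4.73) and ARHGAP25 (-4.66). Groups of 3 libraries were not examined for a library far from the others by a formal rule.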

How the results depend on the processing

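The count of 10278 genes called between 2 h and 12 h in MB468 ranged from 8309 (spike-in totals as library sizes) to 10405 (no filter on low counts) over the alternatives. Without each library in turn the counts were 9827 to 9999 for MB468, 2384 to 2468 at 2-fold or more, 8421 to 8963 for MB468res-R8 and 7839 to 8060 for the difference between the lines. With the replicate number as a block they were 10246, 2424, 9157 and 8160, and the numbers did not pair the samples. Offsets for GC content and length, chosen after seeing the data, gave 9729, 2141, 8544 and 7918 among 13416 genes. Spike-in totals gave 4891 for the difference (1378 above, 3513 below), and at least 10 counts in every library gave 1617 genes at 2-fold or more among 12264 tested, which removes genes near 0 at one time. Spike-in totals, which move all genes up, also turned the signs of ATF4 (0.0072) and of the medians for ER chaperones (0.14), aminoacyl-tRNA synthetases (0.0542), DNA replication (0.0691), autophagy and lysosome (0.0068) and the circadian clock (0.0793). The Met cycle median turned to -0.12 with libraries thinned to the smallest total and, with single libraries left out, lay between -0.0281 (without 2 h replicate 1) and 0.0274, below 0 without any one 2 h library. The histone median lay between -2.12 and 0.34 (without 2 h replicate 2). Depth limited the genes near 0 at 2 h, where the libraries were shallower. Counts per gene do not show whether replicates were separate cultures.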
